A study of Mus musculus with 82 samples.

Results

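The peak lists of EoGFP and EoV5, the same transcription factor Eomes carrying either of 2 tags, were set against each other peak by peak. All entries of both lists were taken, 30129 EoGFP peaks and 38193 EoV5 peaks on the 21 assembled mouse chromosomes, which together are 68322 of the 132113 peaks in the lists of the 4 constructs. A peak counted as shared when it had at least 1 bp in common with a peak of the other list. This gave 23971 EoGFP peaks with EoV5, 6158 EoGFP peaks without EoV5, 23372 EoV5 peaks with EoGFP and 14821 EoV5 peaks without EoGFP.

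Eomes is a T-box transcription factor of the primitive streak, the structure of the early embryo from which mesoderm and definitive endoderm arise. T-box factors bind a short DNA element whose core is AGGTGTGA, at promoters and at distant enhancers, and Eomes is known for directing anterior mesoderm and definitive endoderm downstream of Nodal signalling. In chromatin immunoprecipitation followed by sequencing (ChIP-seq), an antibody pulls down the factor with the DNA it is bound to, and places where fragments pile up are called as peaks. An antibody to a tag such as GFP, a fluorescent protein, or V5, a short viral peptide, stands in for an antibody to the factor itself.

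Among the 82 libraries of the series, 12 are ChIP-seq, the rest being 66 of RNA-seq and 4 of ATAC-seq. Per the labels, EoGFP stands for 2 ChIP-seq libraries pulled down with anti-GFP, and EoV5 for 1 library pulled down with anti-V5. All 3 came from A2lox.Cre mouse embryonic stem cells that lack both Eomes and Brachyury (dKO), grown as embryoid bodies to day 5 with activin A (ActA) at 30 ng/ml and doxycycline (dox), which turns on the tagged Eomes, from day 2. The dox dose is 5 µg/ml in the growth protocol, while the treatment protocol gives the same figure in mg/ml. The tagged Eomes in these cells is under the control of dox and not of its own promoter, and the labels do not say how many clones were used. BraGFP (Brachyury with GFP, 2 libraries, anti-GFP) and EoVP16 (Eomes joined to the VP16 activation domain, 1 library, anti-V5) came from cells of the same genotype, treatment and day, and serve below as further lists.

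The authors deposited 1 list per construct, so no spread between replicates could be computed for any value. Intervals below are 95% Wilson intervals for shares, Newcombe intervals for differences between shares and exact Poisson intervals for pileups, and they cover counting error only. The EoGFP list gives positions alone, while the EoV5 list gives for each peak the pileup (the number of fragments stacked at its summit) and the fold over the background of the peak caller. The names of the lists carry a minimum pileup of 120 for EoGFP and 60 for EoV5, and the depth of the libraries is unknown. The tag, the antibody, the number of libraries and the minimum pileup all differ between the lists and cannot be told apart.

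The pattern that runs through the comparison was a mirror image around gene ends. EoGFP peaks without EoV5 gathered at the ends of coding genes, and EoV5 peaks without EoGFP lay away from them. Promoter windows of list genes with the widest or tallest peaks over them in each class are shown first. Of 136 genes of the 16 lists described below that have a promoter window, 15 (interval 6.80% to 17.4%) were touched there by an EoGFP peak and by no EoV5 peak, against 13.4% of all coding genes. Peaks of both lists touched 57 (41.9%, 34.0 to 50.3), against 29.6%, and an EoV5 peak alone touched 5 (3.68%, 1.58 to 8.32), against 2.58%. The list genes were thus near the background in both unshared classes. Each window runs from 250 bases before to 50 after a transcription start on GRCm38 (RefSeq), read on the strand of the gene, with every CG dinucleotide in capitals.

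Smad3 encodes a transducer of Nodal and activin signals, and Lin28a an RNA-binding protein of pluripotent cells. Their promoters lay under the 2 widest EoGFP peaks without EoV5 on the lists, 3682 bp at Smad3 and 3440 bp at Lin28a.
Smad3, chr9:63757945-63758244, minus strand: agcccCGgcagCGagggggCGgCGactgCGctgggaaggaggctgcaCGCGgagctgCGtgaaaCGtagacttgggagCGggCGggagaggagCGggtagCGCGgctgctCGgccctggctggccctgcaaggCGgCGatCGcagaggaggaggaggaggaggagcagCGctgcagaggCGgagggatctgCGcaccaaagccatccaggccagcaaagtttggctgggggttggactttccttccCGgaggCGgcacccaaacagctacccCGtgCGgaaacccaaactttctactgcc
Lin28a, chr4:134018767-134019066, minus strand: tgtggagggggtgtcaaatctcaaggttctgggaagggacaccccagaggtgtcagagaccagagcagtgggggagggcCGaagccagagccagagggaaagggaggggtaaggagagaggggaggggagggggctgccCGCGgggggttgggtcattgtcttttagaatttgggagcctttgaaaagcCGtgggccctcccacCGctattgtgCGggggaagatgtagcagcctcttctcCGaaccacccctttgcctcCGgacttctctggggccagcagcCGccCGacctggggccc

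Lhx1 encodes a homeobox factor of the streak and node, and Cer1 a secreted inhibitor of Nodal. Among the windows of list genes touched by both lists, theirs lay under the tallest EoV5 peaks, with 446 fragments at Lhx1 and 377 at Cer1.
Lhx1, chr11:84525485-84525784, minus strand: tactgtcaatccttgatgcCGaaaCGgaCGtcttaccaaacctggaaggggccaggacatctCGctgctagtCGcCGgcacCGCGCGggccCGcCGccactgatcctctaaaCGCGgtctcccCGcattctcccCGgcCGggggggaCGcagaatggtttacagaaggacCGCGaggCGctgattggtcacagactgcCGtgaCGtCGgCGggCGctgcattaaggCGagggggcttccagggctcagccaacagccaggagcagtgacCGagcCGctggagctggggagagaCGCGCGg
Cer1, chr4:82885102-82885401, minus strand: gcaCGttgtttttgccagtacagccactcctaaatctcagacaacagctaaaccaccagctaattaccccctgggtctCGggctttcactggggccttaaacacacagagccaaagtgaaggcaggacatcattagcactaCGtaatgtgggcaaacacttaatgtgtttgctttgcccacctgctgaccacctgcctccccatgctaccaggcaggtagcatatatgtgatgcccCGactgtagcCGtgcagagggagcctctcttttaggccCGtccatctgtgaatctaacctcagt

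Evx1 encodes a homeobox factor of the posterior streak, and Fgf10 a growth factor of limb and lung. Among the 5 list genes with an EoV5 peak alone over the promoter, theirs were the tallest, with 100 fragments at Evx1 and 77 at Fgf10.
Evx1, chr6:52313248-52313547, plus strand: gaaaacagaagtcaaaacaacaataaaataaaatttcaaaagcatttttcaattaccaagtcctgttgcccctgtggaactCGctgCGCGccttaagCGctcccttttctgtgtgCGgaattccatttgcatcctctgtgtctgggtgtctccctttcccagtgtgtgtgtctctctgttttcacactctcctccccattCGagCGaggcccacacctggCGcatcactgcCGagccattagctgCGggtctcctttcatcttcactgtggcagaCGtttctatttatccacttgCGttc
Fgf10, chr13:118714449-118714748, plus strand: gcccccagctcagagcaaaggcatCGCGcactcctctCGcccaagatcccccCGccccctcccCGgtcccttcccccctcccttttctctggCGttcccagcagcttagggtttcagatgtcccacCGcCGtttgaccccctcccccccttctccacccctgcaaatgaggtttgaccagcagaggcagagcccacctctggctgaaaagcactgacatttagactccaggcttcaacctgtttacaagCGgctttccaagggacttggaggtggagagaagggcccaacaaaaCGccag

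The windows differed in CG content, with 25 CG in Smad3 and 31 in Lhx1 against 10 in Lin28a, 6 in Cer1, 12 in Evx1 and 10 in Fgf10. None of these 6 windows held AGGTGTGA or its reverse complement TCACACCT. Among all list members with a touched window, Mesp1 was the only gene whose window held the core. Mesp1, a basic helix-loop-helix factor of early cardiac mesoderm and a known target of Eomes, had an EoGFP peak of 1493 bp without EoV5 over its promoter. It is printed with the reverse complement of the core in capitals, and was chosen for printing after its values were seen.
Mesp1, chr7:79793541-79793840, minus strand: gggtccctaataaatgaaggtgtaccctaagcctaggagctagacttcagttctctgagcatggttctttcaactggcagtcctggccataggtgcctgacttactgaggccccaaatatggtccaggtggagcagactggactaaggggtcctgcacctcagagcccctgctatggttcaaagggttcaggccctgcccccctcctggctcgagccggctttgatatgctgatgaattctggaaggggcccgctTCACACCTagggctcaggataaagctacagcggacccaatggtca

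At the ends of coding genes, EoV5 peaks were mostly contained in the EoGFP list, and away from gene ends EoGFP peaks were mostly contained in the EoV5 list. A peak counted as lying at a gene end when no more than 1 kb separated its midpoint from the start or finish of a coding gene. Of 6131 EoV5 peaks at gene ends, 88.3% (87.5 to 89.1) overlapped an EoGFP peak, against 56.0% (55.5 to 56.6) of the 32062 farther away. In the other direction, 67.7% (66.7 to 68.7) of 8334 EoGFP peaks at gene ends overlapped an EoV5 peak, against 84.1% (83.6 to 84.6) of the 21795 farther away. Both trends went on with distance. Beyond 100 kb from any coding gene end, 90.1% of 4289 EoGFP peaks overlapped EoV5, and 50.7% of 7579 EoV5 peaks overlapped EoGFP. The intervals of the nearest and farthest distance classes did not overlap in either list.

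**Figure D1:**
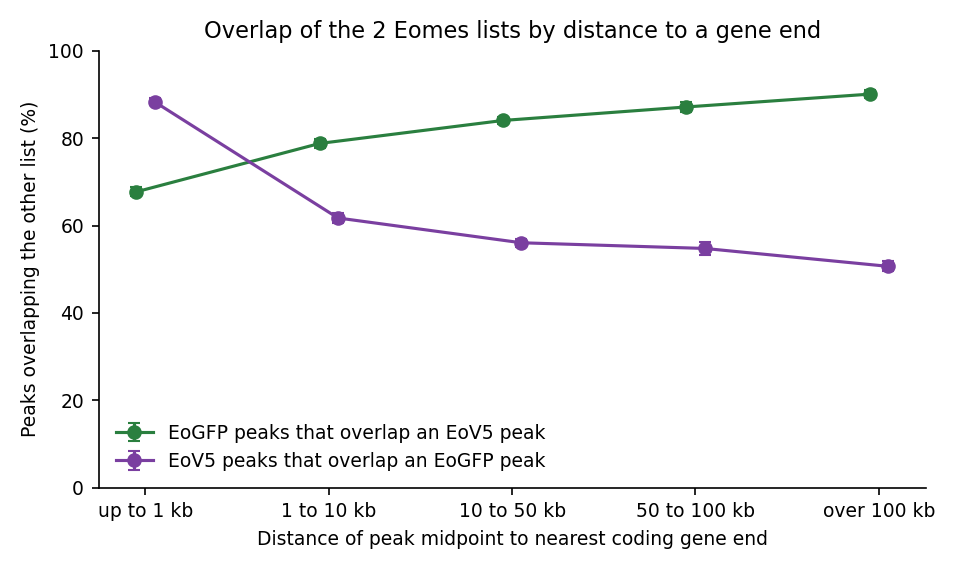
Share of peaks (vertical axis, %) that overlapped a peak of the other list, by the distance of the peak midpoint to the nearest end of a coding gene (horizontal axis), with 95% Wilson intervals. EoV5 peaks fell from 88.3% at gene ends to 50.7% beyond 100 kb, while EoGFP peaks went from 67.7% up to 90.1%.

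Seen by class, 43.7% (42.5 to 44.9) of the EoGFP peaks without EoV5 lay at a gene end, against 23.5% (23.0 to 24.1) of those with EoV5, a difference of 20.1 percentage points (18.8 to 21.5). Among EoV5 peaks, 4.83% (4.50 to 5.19) of those without EoGFP lay at a gene end, against 23.2% (22.6 to 23.7) of those with EoGFP. The difference was 18.3 points (17.7 to 19.0), and it shrank to 4.08 points when only EoV5 peaks of at least 120 fragments were used. The median distance to a gene end was 2263.5 bp for EoGFP without EoV5, with quartiles of 227 and 19357 bp. It was 32650 bp for EoV5 without EoGFP, with quartiles of 9751 and 101253 bp. The shared peaks lay between, with medians of 13638 bp in the EoGFP list and 14383 bp in the EoV5 list.

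Most of the gene-end peaks were at starts. With strand taken from the promoter table, for the genes it holds, 34.6% (33.4 to 35.8) of EoGFP peaks without EoV5 lay within 1 kb of the start of a coding gene, and 114 of 5960, or 1.91%, within 1 kb of a finish alone. Of EoV5 peaks without EoGFP, 3.03% (2.77 to 3.33) lay at a start, and 144 of 14307 at a finish alone. The classes were thus set apart mostly at starts. Chromosome 18 was left out of this count because the promoter table does not hold it. Away from gene ends, EoV5 peaks without EoGFP divided into 44.2% inside coding genes and 51.0% outside them, and EoGFP peaks without EoV5 into 30.9% and 25.5%.

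Height bore on the EoV5 side. EoV5 peaks with EoGFP had a median pileup of 124 fragments, with quartiles of 86 and 206 and a highest value of 3296. EoV5 peaks without EoGFP had a median of 80 fragments, with quartiles of 68 and 101 and a highest value of 2019. Both classes started at the minimum of 61, and their middle ranges overlapped. Among the shared peaks 52.4% reached 120 fragments, and among those without EoGFP 14.2% did. The median fold was 17.7 with EoGFP and 11.4 without. Fold added little to pileup, because the pileup plus 1 divided by the fold gave the same background of 7.008 fragments, within 0.5%, in 93.2% of EoV5 peaks. A higher local background was found in 7.56% of shared peaks and 5.54% of those without EoGFP.

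The height of the shared peaks depended on where they lay. At gene ends the median pileup of shared EoV5 peaks was 87 fragments, against 134 elsewhere inside genes and 153 outside genes. EoV5 peaks without EoGFP had no such order, with medians of 79, 79 and 80 fragments at the same locations. Shared EoV5 peaks at gene ends were low but broad, with a median width of 1531 bp against 870 bp outside genes.

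Split by height, the overlap of EoV5 with EoGFP followed different courses at gene ends and elsewhere. At gene ends, 85.5% (84.1 to 86.8) of the lowest EoV5 peaks, of 61 to 80 fragments, already overlapped EoGFP. Away from gene ends, 26.4% (25.5 to 27.3) of peaks of that height did. The share away from gene ends then climbed with height, to 56.7% at 101 to 120 fragments, 83.8% at 151 to 200 and 98.5% (97.5 to 99.1) at 401 to 600. At gene ends it stayed between 85.5% and 93.0% in every height class up to 800 fragments. The intervals of gene ends and other locations did not overlap in any height class up to 150 fragments. At 201 to 300 fragments the order was turned, with 88.2% (83.5 to 91.7) at gene ends and 94.1% (93.3 to 94.9) elsewhere.

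**Figure D2:**
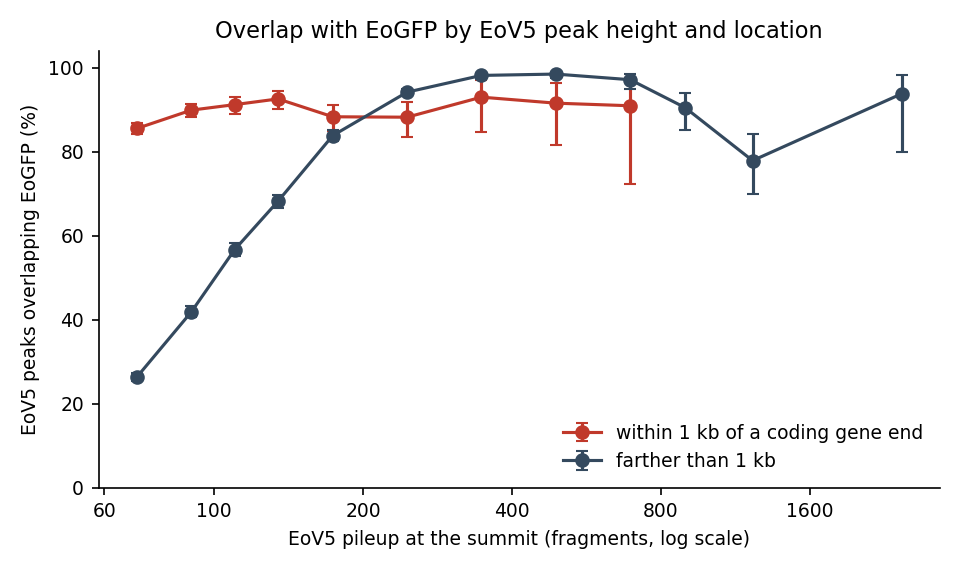
Share of EoV5 peaks overlapping an EoGFP peak (vertical axis, %) by EoV5 pileup at the summit (horizontal axis, fragments, log scale, each point at the geometric middle of its class), at gene ends and elsewhere, with 95% Wilson intervals and classes of at least 20 peaks. The gene-end points stay between 85.5% and 93.0%. The others climb from 26.4% to 98.5%, dip to 77.9% at 1001 to 1500 fragments and stand at 93.8% of 32 peaks above 1500.

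The tallest EoV5 peaks broke this order. Over all locations 98.1% (97.0 to 98.7) of EoV5 peaks of 401 to 600 fragments overlapped EoGFP, but 90.2% (84.9 to 93.8) of the 174 peaks of 801 to 1000 fragments did, and 77.0% (69.3 to 83.3) of the 135 peaks of 1001 to 1500. Above 1500 fragments the share was 93.8% (79.9 to 98.3) of 32 peaks. In all, 33 EoV5 peaks of more than 1000 fragments had no EoGFP peak. Every one of these 33 overlapped both a BraGFP peak, pulled down with the anti-GFP antibody that was also used for EoGFP, and an EoVP16 peak. Of the 134 shared peaks of that height, 47.8% overlapped BraGFP and 97.0% overlapped EoVP16.

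Put the other way, none of the 70 EoV5 peaks above 1000 fragments that BraGFP lacked was missing from the EoGFP list, while 33 of the 97 that BraGFP held were missing. At low height the order was the opposite. Of EoV5 peaks of 61 to 80 fragments, 73.2% (71.3 to 75.1) of those overlapping BraGFP also overlapped EoGFP, against 31.5% (30.6 to 32.4) of the others. The height classes of the tall peaks were drawn after their values were seen, and what kept these regions out of the EoGFP list was not tested. The local background was raised in 7 of the 33 tall peaks without EoGFP (21.2%) and in 13 of the 134 with it (9.70%).

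**Figure D3:**
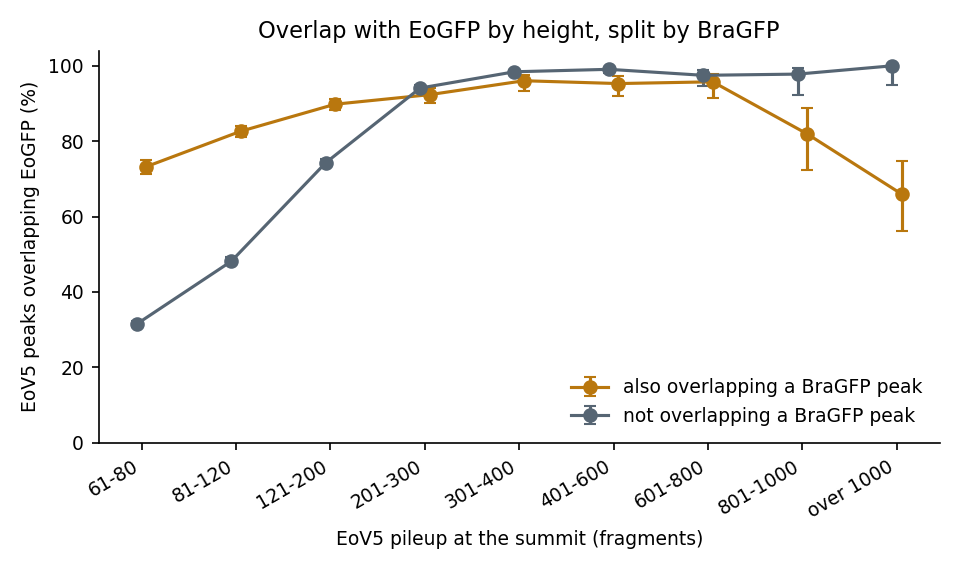
Share of EoV5 peaks overlapping an EoGFP peak (vertical axis, %) by EoV5 pileup class (horizontal axis, fragments), for peaks that do and do not also overlap a BraGFP peak, with 95% Wilson intervals. Peaks with BraGFP lead at low height and drop to 66.0% above 1000 fragments, where peaks without BraGFP are all in the EoGFP list.

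The 5 tallest EoV5 peaks without EoGFP lay 9046 bp or more from any EoGFP peak. The first, at chr10:22341384-22343532 (mm10), held 2019 fragments (1932 to 2109) and lay 19.4 kb from Raet1d, which encodes a ligand of an activating receptor of natural killer cells. The next, at chr12:19753829-19755316 with 1743 fragments (1662 to 1827), was 69.6 kb from the predicted gene Gm38702. The third, at chr7:26245974-26247178 with 1401 fragments (1329 to 1476), was 20.3 kb from Vmn1r184, a vomeronasal receptor gene. A peak of 1329 fragments (1259 to 1402) at chr1:53667521-53669169 lay inside Dnah7a, which encodes an axonemal dynein, and one of 1309 fragments (1239 to 1382) at chr3:59808584-59810046 lay inside the predicted gene Gm16527. The nearest EoGFP peak was between 9046 and 96656 bp away from each of these 5.

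The 5 tallest shared EoV5 peaks reached 2844 to 3296 fragments. They lay near Fam110c with 3296 fragments, inside Zswim6 with 3237, inside Rad51b, a gene of homologous recombination, with 3067, near Eif3f, which encodes a translation initiation factor, with 2923, and near Ndc1, a nuclear pore gene, with 2844. All 5 overlapped EoVP16 and none overlapped BraGFP, the reverse of the tallest unshared peaks as far as BraGFP goes.

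On the EoGFP side only width was available. The median width was 874 bp with EoV5 and 860 bp without, a difference of 14 bp that turned to the other sign when EoV5 was held to at least 120 fragments. With all locations pooled, EoGFP width did not follow the pileup of the overlapping EoV5 peak, a height from another library and antibody. Width and pileup both differed between locations, and no correlation within a location was computed. Over 22653 pairs of 1 EoGFP peak with 1 EoV5 peak, at all locations, Spearman's rho was 0.78 between the widths of both peaks. It was -0.0019 between EoGFP width and EoV5 pileup, and 0.094 between EoV5 width and EoV5 pileup. These are descriptions across peaks of the same libraries, and peaks are not replicates. At gene ends the EoGFP peaks were wider in both classes, with medians of 1246 bp with EoV5 and 1071 bp without, against 771 and 668.5 bp outside genes. Among gene-end EoGFP peaks, those of 1637 bp and above overlapped EoV5 in 81.0% of 1701 cases, and the peaks of 514 to 601 bp in 55.8% of 308. The narrowest, of 48 to 513 bp, did not follow that order, with 69.2% of 299.

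The 5 widest EoGFP peaks without EoV5 all had their midpoints inside coding genes, 4 of them within 2 kb of an end. The widest, of 5315 bp at chr14:11551446-11556760, lay at an end of Ptprg, a receptor tyrosine phosphatase gene. It was followed by 4669 bp at Kdm6b, which encodes a histone H3K27 demethylase, 4530 bp inside Plec, a cytoskeletal linker gene, 4314 bp at Hs3st3b1, a heparan sulfate sulfotransferase gene, and 3976 bp at Bmp7, a bone morphogenetic protein gene. The Kdm6b peak at chr11:69416419-69421087 had an EoV5 peak 201 bp from its edge, so its class depended on the overlap rule, while the other 4 had gaps of 1395 to 13614 bp.

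Near misses were few in both directions. Of EoGFP peaks without EoV5, 5.10% (4.58 to 5.68) had an EoV5 peak within 1 kb and 37.7% (36.5 to 38.9) within 10 kb. Of EoV5 peaks without EoGFP, 4.69% (4.36 to 5.04) had an EoGFP peak within 1 kb and 33.0% (32.2 to 33.8) within 10 kb, and 13.5% had none within 100 kb. Where peaks did overlap they overlapped well. In 99.9% of 24021 overlapping pairs at least 50% of the shorter peak was covered, and 96.5% of EoV5 summits fell inside the EoGFP peak, at a median of 89 bp from its midpoint.

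The BraGFP and EoVP16 lists separated the classes further. EoGFP peaks without EoV5 overlapped EoVP16, the other Eomes construct pulled down with anti-V5, as often as shared ones did, at 71.0% (69.9 to 72.2) against 70.8% (70.2 to 71.4), a difference of 0.239 points whose interval included 0. EoV5 peaks without EoGFP overlapped EoVP16 in 25.9% (25.2 to 26.7) of cases against 70.3% (69.7 to 70.9) of shared ones. Most of the EoGFP peaks that EoV5 lacked were thus also in the EoVP16 list, and the part of tag or antibody in this was not tested. The EoV5 peaks that EoGFP lacked mostly were not, with 24.0% away from gene ends, but 64.25% (60.7 to 67.7) of the 716 at gene ends did overlap EoVP16. With EoV5 held to at least 120 fragments, EoVP16 overlapped 36.6% of EoV5 peaks without EoGFP and 67.95% of shared ones. The names of the EoVP16 and EoV5 lists carry unlike minimum pileups, of 36 and 60. Of all EoV5 peaks without EoGFP, 70.2% were in neither the BraGFP nor the EoVP16 list. Those 10408 peaks had a median pileup of 79 fragments with 2.25% at gene ends.

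Split by location, the EoGFP classes did differ. At gene ends 90.6% (89.5 to 91.7) of EoGFP peaks without EoV5 and 95.3% (94.7 to 95.8) of those with EoV5 overlapped EoVP16. Elsewhere the shares were 55.9% (54.2 to 57.5) and 63.3% (62.6 to 64.0), so within each location the unshared peaks were lower. BraGFP overlapped 22.7% (21.7 to 23.8) of EoGFP peaks without EoV5 and 28.2% (27.6 to 28.7) of those with it, and this order was turned, to 28.6% and 24.8%, with EoV5 held to at least 120 fragments. At gene ends BraGFP overlapped 49.7% of shared EoGFP peaks and 25.7% of unshared ones, while elsewhere the shares were 21.5% and 20.4%, whose intervals overlapped.

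**Figure D4:**
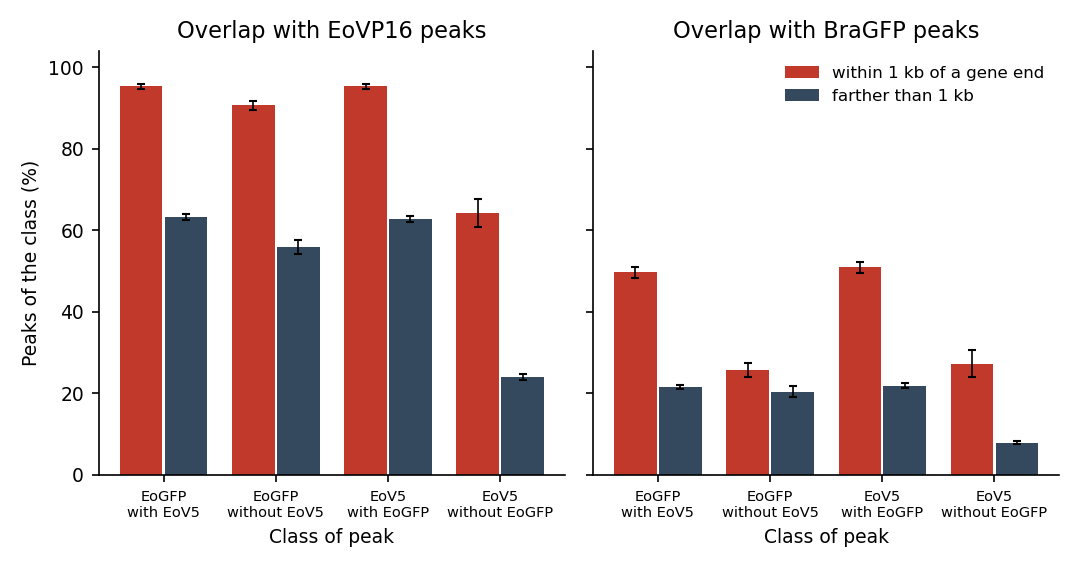
Share of the peaks of each class (vertical axis, %) that overlapped an EoVP16 peak (left) or a BraGFP peak (right), at gene ends and farther away, with 95% Wilson intervals. EoV5 peaks without EoGFP farther than 1 kb from a gene end are lowest in both panels, at 24.0% for EoVP16 and 7.91% for BraGFP.

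The nearest coding genes of the classes differed in number and length. The 6158 EoGFP peaks without EoV5 had 5055 nearest coding genes, of which 82.9% had a single such peak and 11 had 5 or more. The 14821 EoV5 peaks without EoGFP had 6954, of which 55.2% had a single such peak and 646 had 5 or more. The 2 sets had 2207 genes in common, 43.7% of the EoGFP set and 31.7% of the EoV5 set. For comparison, of all 21887 coding genes 6954 were in the EoV5 set and 5055 in the EoGFP set. The overlap of the sets was not tested. The median length of the genes was 28.4 kb on the EoGFP side and 43.2 kb on the EoV5 side, against 17.2 kb for all 21887 coding genes.

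Hes1, the Notch target that represses differentiation genes, was nearest to most EoGFP peaks without EoV5, with 7, beside 9 shared peaks and 4 EoV5 peaks alone. It is a short gene of 2.44 kb. Camta1, Celf4 and Gse1 followed with 6 each, and Auts2 with 5. On the EoV5 side Auts2, a long gene of neural development, led with 30 peaks of 63 to 167 fragments, beside its 5 EoGFP peaks without EoV5 and 27 shared ones. Tenm4, a teneurin gene, had 22 EoV5 peaks without EoGFP. Adgrl2, an adhesion receptor gene, Fhit and the protocadherin gene Pcdh7 had 21 each, with median pileups of 77 to 81 fragments. These 5 genes were 173.5 to 1612 kb long, and no peak without EoGFP near these 5 genes was taller than 186 fragments.

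Around the genes whose products the study returned to the double knockout, shared peaks outnumbered each kind of unshared peak, as they did near all coding genes. Within 50 kb, all 7 genes had a shared peak, against 75.8% of all coding genes. An EoGFP peak without EoV5 was found at 5 of 7, against a background of 47.5% of coding genes, and an EoV5 peak without EoGFP at 3 of 7, against 53.1%. Eomes had 5 shared EoGFP peaks, and 1 EoGFP peak alone. Its tallest EoV5 peak, of 347 fragments (311 to 386), had its midpoint 1.78 kb from the gene. T, which encodes Brachyury, had 2 shared peaks with EoV5 pileups of 69 and 82 fragments, and 2 EoGFP peaks alone, 18.7 and 37.8 kb away.

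Mesp1 had 5 shared peaks, with EoV5 pileups of 65 to 211 fragments, and 3 EoGFP peaks alone, 1 of them the promoter peak printed above. All 3 overlapped EoVP16. Foxa2, a forkhead factor of endoderm and node, was the factor gene with most EoV5 peaks alone. They held 139, 227, 147 and 69 fragments, 13.5 to 35.9 kb upstream of the gene, beside 5 shared peaks of 78 to 362. Mixl1, a homeobox gene of the streak, had 5 shared EoGFP peaks and a single EoV5 peak alone of 107 fragments. Msgn1, a gene of presomitic mesoderm, had 2 shared peaks, of 452 and 398 fragments, and an EoV5 peak alone of 62. Six2, a homeobox gene, had 5 shared EoGFP peaks, 1 EoGFP peak alone and no EoV5 peak alone. In all, these 7 loci held 8 EoGFP peaks alone, 6 EoV5 peaks alone and 29 shared EoGFP peaks. Of their EoGFP peaks 21.6% lacked EoV5, against 26.0% near all coding genes, and of their EoV5 peaks 18.2% lacked EoGFP, against 31.2%. The 4 EoV5 peaks alone at Foxa2 lay between shared peaks on either side.

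Definitive endoderm genes had the lowest share of EoGFP peaks alone among the lists. Of 16 members, 14 had an EoV5 peak without EoGFP within 50 kb (53.1% of coding genes) and 5 had an EoGFP peak without EoV5 (47.5%). Of the EoV5 peaks near these genes 44.1% lacked EoGFP, against 31.2% near all coding genes, and of the EoGFP peaks 8.82% lacked EoV5, against 26.0%. Cxcr4, the chemokine receptor of migrating endoderm, had 7 EoV5 peaks alone of 63 to 108 fragments and 2 shared peaks. Prdm1, a transcriptional repressor gene, had 6 EoV5 peaks alone and 7 shared EoGFP peaks. Otx2, a head and forebrain homeobox gene, had 2 EoGFP peaks alone, the most on this list, and 3 EoV5 peaks alone.

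Presomitic and posterior mesoderm genes had the lowest share of EoV5 peaks alone among the lists. Of 16 members, 11 had an EoGFP peak without EoV5 (47.5% of coding genes) and 6 an EoV5 peak without EoGFP (53.1%). Dll3, a Notch ligand, and Hes7, the oscillating repressor of the segmentation clock, had 3 EoGFP peaks alone each and no EoV5 peak alone. Rspo3, a Wnt agonist, had 3 EoV5 peaks alone and no EoGFP peak alone. Of the EoV5 peaks near this list 15.5% lacked EoGFP, against 31.2% near all coding genes, and of the EoGFP peaks 28.6% lacked EoV5, near the 26.0% of all coding genes. Of 16 anterior and cardiac mesoderm genes, 10 had an EoV5 peak alone (53.1% of coding genes) and 6 an EoGFP peak alone (47.5%). There were 6 EoV5 peaks alone at Isl1, a gene of cardiac progenitors, and 5 at Gata4. Mesp1 and its neighbour Mesp2 shared 3 EoGFP peaks alone.

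The signalling lists had both kinds. Over all coding genes 47.5% had an EoGFP peak alone and 53.1% an EoV5 peak alone, the background for the 3 lists here. In the Nodal and Smad pathway 11 of 15 members had EoGFP peaks alone and 11 had EoV5 peaks alone. The receptor genes Acvr1b and Acvr2b had 4 EoGFP peaks alone each, and Smad3 had 6 EoV5 peaks alone of 63 to 171 fragments beside the wide EoGFP peak over its promoter. In the Wnt pathway 10 of 15 members had EoGFP peaks alone and 13 EoV5 peaks alone. Wnt3, the ligand that initiates the streak, had 5 EoGFP peaks alone and 2 EoV5 peaks alone, of 69 and 78 fragments, and Sp5, a Wnt target, had 3 and 2. Tcf7l1, a repressor of Wnt targets, had 4 EoV5 peaks alone. In FGF and ERK feedback 7 of 15 had EoGFP peaks alone and 10 EoV5 peaks alone, led by the receptor gene Fgfr2 with 3 and 7. Of the EoGFP peaks near the Nodal, Wnt and FGF lists 28.2%, 23.8% and 22.2% lacked EoV5, against 26.0% near all coding genes. Of the EoV5 peaks 29.4%, 27.4% and 40.3% lacked EoGFP, against 31.2%.

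Pluripotency genes had EoV5 peaks alone at 12 of 15 members and EoGFP peaks alone at 6. Over all coding genes the shares were 53.1% and 47.5%, the background for every list in this paragraph. Near pluripotency genes 38.2% of the EoV5 peaks lacked EoGFP, against 31.2% near all coding genes. Of the EoGFP peaks 18.2% lacked EoV5, against 26.0%. Lin28a had 3 EoGFP peaks alone, the promoter peak included, and Esrrb and Dppa3 had 3 EoV5 peaks alone each. Epiblast and early neural genes had EoGFP peaks alone at 11 of 15 and EoV5 peaks alone at 9. Pou3f1, a POU factor of the epiblast, had 5 EoGFP peaks alone and no EoV5 peak alone. Among genes of epithelial-mesenchymal transition and adhesion, 8 of 15 had EoGFP peaks alone and 9 EoV5 peaks alone, with 6 EoV5 peaks at Cdh2 (N-cadherin) and 4 at Cdh1 (E-cadherin). In the primitive streak and mesendoderm list, which shares members with several of these, 10 and 9 of 15 had them, and Lhx1 had 4 EoV5 peaks alone of 76 to 99 fragments.

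Housekeeping genes had unshared peaks of both kinds, with EoGFP peaks alone at 12 of 15 (47.5% of coding genes) and EoV5 peaks alone also at 12 of 15 (53.1%). Rps18 had 4 EoGFP peaks alone and Rplp0 had 3, both genes of ribosomal proteins. Near this list 37.1% of the EoGFP peaks lacked EoV5, against 26.0% near all coding genes, and 28.8% of the EoV5 peaks lacked EoGFP, against 31.2%. Of 15 histone and immediate early genes, 9 had EoGFP peaks alone, with 4 at Junb, and 9 had EoV5 peaks alone. The backgrounds are the same 47.5% and 53.1%. Long adhesion and synaptic genes had 116 EoV5 peaks alone, 51.1% of the EoV5 peaks near them. In the blood and endothelium list, of other cell types, the share was 50.9%, with 7 EoV5 peaks alone at Runx1 and 5 at Fli1. Olfactory and sensory receptor genes had few peaks of any kind. EoV5 peaks alone were at 5 of 12 (53.1% of coding genes) and EoGFP peaks alone at 4 (47.5%).

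**Figure D5:**
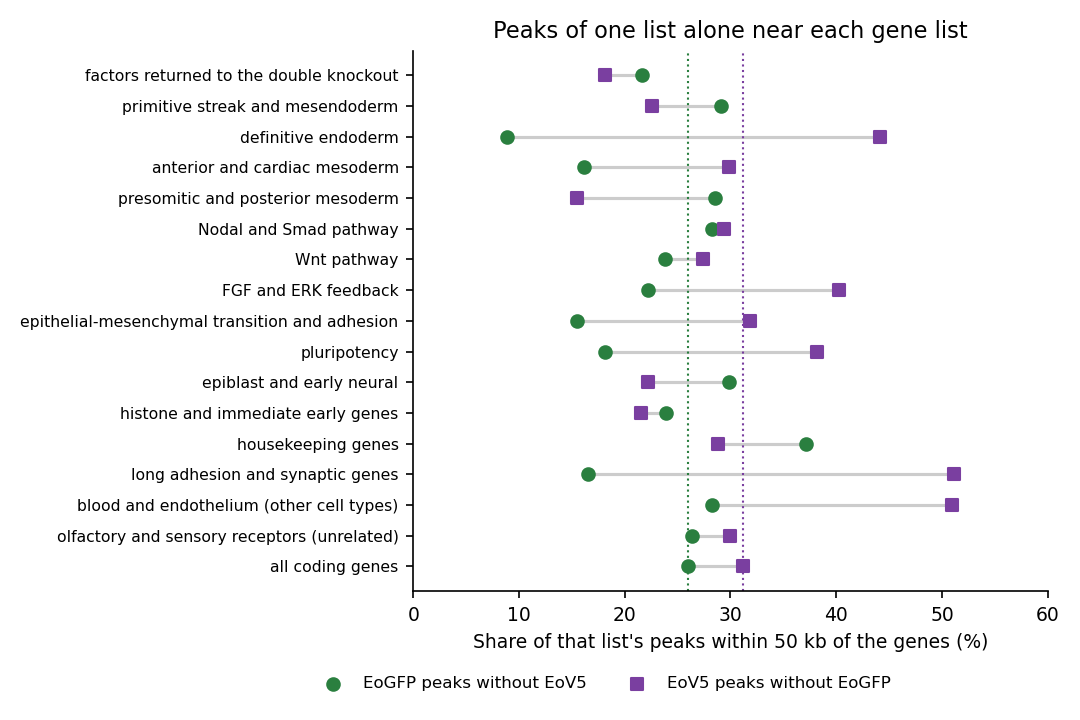
For each gene list (vertical axis), the share (horizontal axis, %) of EoGFP peaks within 50 kb that lacked EoV5 (circles) and of EoV5 peaks within 50 kb that lacked EoGFP (squares), with all coding genes as dotted lines. The squares of definitive endoderm, long adhesion and synaptic, and blood genes lie at 44.1%, 51.1% and 50.9%, against 31.2% for all coding genes.

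The lists were not matched for gene length or for the number of neighbours, a peak near 2 members was counted for both, and the counts are descriptions without a test. With 7 to 16 members per list, a share of members near the background of 47.5% or 53.1% is not a result about the list.

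Promoter windows of coding genes were compared by the peaks that touched them. Of 21238 windows, 2687 were touched by an EoGFP peak alone, 564 by an EoV5 peak alone, 5763 by both lists and 11918 by neither. The remaining 306 were touched by 1 list, with a peak that overlapped the other list outside the window. The number of CG dinucleotides in the 300 bases had a median of 21 under EoGFP alone, 22 under EoV5 alone and 23 under both, against 5 under neither. GC content had medians of 61.0%, 63.0% and 62.3% against 51.0%. All touched classes were thus rich in CG and differed little from each other, with quartiles of 15 and 27 CG under EoGFP alone and of 11 and 32 under EoV5 alone.

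The T-box core was rare in promoters of every class. AGGTGTGA or TCACACCT, searched on both strands with all overlapping matches, was found in 1.15% (1.02 to 1.31) of all windows. It was in 0.484% (0.283 to 0.826) of windows under EoGFP alone, 13 of 2687, and in 2.48% (1.48 to 4.12) of windows under EoV5 alone, 14 of 564, whose intervals did not overlap. Windows under both lists had it in 0.954% (0.734 to 1.24) and windows under neither in 1.37% (1.17 to 1.59). The 2687 windows came from 2399 genes and the 564 from 489, and the intervals treat windows of the same gene as independent. A match of letters is not a site, and peaks outside promoters could not be searched without a genome sequence.

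Across chromosomes the X stood apart on the EoV5 side. On autosomes 32.1% (chromosome 19) to 42.9% (chromosome 1) of EoV5 peaks lacked EoGFP, and on X 57.5% (53.7 to 61.3) of 638 did. The median EoV5 pileup was 99 fragments on X and 99 on autosomes. In each height class up to 200 fragments a smaller share of X peaks overlapped EoGFP, for example 27.2% (21.6 to 33.8) of those of 81 to 120 fragments against 56.1% (55.2 to 57.0) on autosomes. Above 200 fragments the shares were 92.8% (86.9 to 96.2) and 95.1% (94.6 to 95.6), whose intervals overlapped. Of EoGFP peaks on X 18.6% (14.8 to 23.2) lacked EoV5, within the range of 16.2% to 25.8% on autosomes. The labels do not give the sex of the line or the copy number of X in the EoGFP and EoV5 cells, and neither was tested.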

How the data were processed

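ChIP-seq peak lists of EoGFP (2 libraries), EoV5 (1), BraGFP (2) and EoVP16 (1), all with dox, were used, grouped by title; all other samples were not analysed here. MACS2 2.1.1.20160309.4, bedtools 2.27.0 and Bowtie2 2.3.4 were among the tools, on mm10/GRCm38, per the submitters' processing notes, with order, settings, control and the joining of 2 libraries not given in the sources used here. In the deposited EoV5 list, the signal is a pileup, in whole fragments at the summit, the ratio is the fold over the caller's background, and the authors' −log10 p and q were not used. The authors' column order was read from the values, since the lists have no header. The deposited EoGFP list holds positions only, and how they were counted (from 0 or 1) is not given. Names of the lists carry the minimum pileups of 120, 60, 40 (BraGFP) and 36 (EoVP16). Depth per library is unknown, so no value was scaled to it.

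Entries on contigs (4 EoGFP, 7 EoV5) and repeated entries (12 and 46) were left out. In the EoGFP list 72 entries, and in the EoV5 list 12, end at the same position number as an entry on another chromosome. These were kept, and an alternative leaves them out. Genes came from the RefSeq table of GRCm38.p6 and promoters from the RefSeq promoter table, which covered 79.8% of coding genes. Distances run from peak midpoints to gene spans and ends. Interval code was tested on simulated data. Python 3.11.15, pandas 2.3.3, numpy 2.4.6 and scipy 1.17.1 were used.

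No test was run, as each construct has 1 list. Alternatives varied the overlap rule, the EoV5 minimum, height, width, chromosomes, gene-end window, gene set and peak centre. Named genes were the nearest genes of the 5 tallest or widest peaks and the 5 genes with most peaks of each unshared class, the 2 members per list with most peaks of each, and the 7 returned factors. The members, lists and rules were chosen with earlier results of these data known.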

Additional observations from a re-analysis of the deposited data

How the results depend on the processing

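Across 11 alternatives, 89 values were recomputed, and 87 of them could be compared with the 95% interval of the value reported. Within it were 44 and outside it 43, of which 5 changed sign. All 13 values stayed within their intervals with an overlap of at least 50% of the shorter peak and on autosomes alone, as did the 4 values without entries sharing an end position, an alternative added after seeing the data. With nearest genes taken within 50 kb, their counts were 4820 (EoGFP) and 6301 (EoV5), against 5055 and 6954. Differences below are, for EoGFP, peaks without EoV5 minus peaks with it, and, for EoV5, peaks with EoGFP minus peaks without it.

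Counting peaks within 500 bp as overlapping gave overlaps of 80.1% of EoGFP and 62.1% of EoV5 peaks. With EoV5 peaks of at least 120 fragments the overlaps were 41.7% and 85.3%, with the taller 50% of EoV5 peaks 51.7% and 79.4%, and with the wider 50% of EoGFP peaks 31.1% of EoV5. The fall in EoGFP follows from removing EoV5 peaks, and that in EoV5 from removing EoGFP peaks.

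With EoV5 at 120 or more, gene-end differences were 28.6 points (EoGFP) and 4.08 (EoV5), and median distances differed by -21478 and -6772 bp. With the taller 50% these were 28.8, 7.97, -19630 and -10943, and with the wider 50% 25.6, 30.2, -4676 and -24840.5. A gene-end window of 5 kb gave 21.8 and 19.1 points. All genes of the table gave 19.4 points for EoV5 and -4568.5 and -6516 bp. EoV5 summits gave 17.5 points.

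The BraGFP difference in EoGFP, -5.45 as reported, changed sign, to 3.81 points with EoV5 at 120 or more and 2.60 with the taller 50%, and was -10.2 with the wider 50%. The EoVP16 difference in EoGFP, 0.239 as reported, was 4.36, 6.02 and -2.84 points in that order, changing sign in the last. In EoV5 the differences were 10.3, 14.6 and 25.6 points for BraGFP and 31.3, 34.9 and 42.2 for EoVP16. The width difference, -14 bp as reported, changed sign, to 14 bp with EoV5 at 120 or more and 30 bp with the taller 50%. The pileup difference was 56 fragments with EoV5 at 120 or more and 30 with the wider 50% of EoGFP, and the fold difference was 7.99 and 4.27. The cause of these shifts was not tested.

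No paired analysis was possible because each construct has a single peak list. The EoGFP list has no height and no depth is known, so whether EoV5 peaks missing from it fall under its minimum pileup was not tested.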
